A study of Rattus norvegicus with 28 samples.

Results

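Of 14217 genes measured in endothelial preparations of rat hearts, 86 have a symbol that starts with Nduf, Uqcr, Cox4, Cox5, Cox6, Cox7, Cox8 or Atp5, or are 1 of the 4 subunits Sdha, Sdhb, Sdhc and Sdhd of succinate dehydrogenase, and these 86 nuclear genes of the mitochondrial respiratory chain are described here. By complex, 34 were counted under complex I, 4 under complex II, 7 under complex III, 19 under complex IV (cytochrome c oxidase) and 15 under complex V (ATP synthase). The remaining 7 are 6 assembly factors of complex I (Ndufaf1, Ndufaf3, Ndufaf4, Ndufaf5, Ndufaf7 and Ndufaf8) and Atp5if1, which inhibits ATP synthase. Every member whose symbol starts with Cox was counted under complex IV. These include the pseudogene Cox6c-ps1 and the Cox7a2-like gene Cox7a2l, so that not all 19 are subunits of the enzyme. The muscle isoforms of cytochrome c oxidase, Cox6a2, Cox7a1 and Cox8b, were kept apart from the other 83. Where several probe sets matched a gene, as for 9 members, the one with the highest endothelial mean stands for it.

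Complexes I and II pass electrons from nutrients to ubiquinone, complex III passes them to cytochrome c, and complex IV hands them to oxygen. Complexes I, III and IV pump protons across the inner mitochondrial membrane, and ATP synthase uses that gradient to make ATP. Heart muscle cells are packed with mitochondria and make their own isoforms of some cytochrome c oxidase subunits, while endothelial cells, which line the vessels, draw much of their ATP from glycolysis.

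All animals were male rats. DA (Dark Agouti) hearts were placed into Lewis recipients (allografts) and Lewis hearts into Lewis recipients (isografts), in the neck and with vessels joined over cuffs. The 8 endothelial groups of 3 arrays were normal DA heart, normal Lewis heart, and allografts and isografts taken on days 2, 3 and 4. Cells carrying CD45, a leukocyte protein, were removed from the minced hearts before cells carrying CD31 were collected, in normal hearts and grafts alike. Leukocytes of allografts, labelled with the recipient strain Lewis, were measured on 4 further arrays (1 on day 2, 2 on day 3 and 1 on day 4). Ages, and whether an array holds 1 animal or a pool, are not given in the sources used here. Values are the deposited log2 signals of Affymetrix arrays, in which a difference of 1 is 2-fold.

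The endothelial label was borne out by the summed level of 14 endothelial genes, whose mean lay between 11.69 and 12.22 log2 on the 24 endothelial arrays and between 8.43 and 10.41 on the leukocyte arrays. Other cells were measured too. The mean of 14 pan-leukocyte genes was 7.15 to 7.61 in the normal hearts, 7.70 to 8.78 in isografts and 8.51 to 9.33 in allografts. The mean of 19 cardiomyocyte genes was 7.05 to 7.78 in the normal Lewis arrays, 6.12 to 6.69 in the normal DA arrays, 6.25 to 6.80 in isografts and 5.89 to 6.55 in allografts, with the highest value on replicate 2 of normal Lewis. In such mixed preparations, fewer cells of a type and less RNA per cell cannot be told apart.

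The promoters of the muscle isoforms and of Cox8a, the form of subunit 8 made in most tissues, are shown because the results turn on how muscle and common subunits differ. Each runs from 250 bases before to 50 bases after the start of the gene, 5′ to 3′ on the strand of the gene, from RefSeq on GRCr8. They lie at chr1:205408224-205408523 on the minus strand (Cox8b), chr1:192219667-192219966 on the minus strand (Cox6a2), chr1:94568966-94569265 on the plus strand (Cox7a1) and chr1:213833574-213833873 on the minus strand (Cox8a). Capitals mark E-boxes (CANNTG, the letters read by muscle and many other helix-loop-helix factors) in the muscle isoforms, also the MEF2 core CTAAAAATA in Cox6a2, and the ETS core CCGGAAG, here on the other strand, in Cox8a.
Cox8b: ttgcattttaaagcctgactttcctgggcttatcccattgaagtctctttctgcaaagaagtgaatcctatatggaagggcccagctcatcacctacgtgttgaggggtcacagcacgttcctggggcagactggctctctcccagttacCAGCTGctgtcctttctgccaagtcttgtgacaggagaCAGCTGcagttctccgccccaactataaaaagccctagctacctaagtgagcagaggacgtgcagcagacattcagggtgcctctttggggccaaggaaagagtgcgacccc
Cox6a2: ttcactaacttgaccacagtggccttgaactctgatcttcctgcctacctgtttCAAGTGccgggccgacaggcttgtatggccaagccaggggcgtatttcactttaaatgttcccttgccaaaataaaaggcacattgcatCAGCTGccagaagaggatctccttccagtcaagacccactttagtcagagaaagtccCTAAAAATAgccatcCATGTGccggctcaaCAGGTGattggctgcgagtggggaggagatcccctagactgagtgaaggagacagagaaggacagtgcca
Cox7a1: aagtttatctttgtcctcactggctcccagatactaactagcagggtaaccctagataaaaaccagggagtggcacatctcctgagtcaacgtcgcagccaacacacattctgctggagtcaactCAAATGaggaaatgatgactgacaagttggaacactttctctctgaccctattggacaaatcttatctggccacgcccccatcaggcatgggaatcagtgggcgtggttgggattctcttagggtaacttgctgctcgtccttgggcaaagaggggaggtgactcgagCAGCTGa
Cox8a: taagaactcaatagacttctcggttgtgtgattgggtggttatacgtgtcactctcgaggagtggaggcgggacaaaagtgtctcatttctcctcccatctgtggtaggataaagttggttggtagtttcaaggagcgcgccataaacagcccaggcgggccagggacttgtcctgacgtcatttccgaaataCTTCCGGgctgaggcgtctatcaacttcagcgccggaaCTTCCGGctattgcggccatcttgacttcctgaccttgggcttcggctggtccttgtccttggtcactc

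The 3 muscle promoters held 2 E-boxes (Cox8b), 4 E-boxes and 1 MEF2 core (Cox6a2) and 2 E-boxes (Cox7a1), and none of the 3 held the NRF1 or the ETS core. Cox8a held 2 ETS cores, 1 E-box and 1 hypoxia response core (ACGTG), of which only the ETS cores are in capitals above. Cox8b also held 3 hypoxia response cores, which are not marked. Promoters were found for 78 of the 86 members among 27457 rat promoters, and motifs were searched on both strands. The core GCGCANGCG of NRF1, a factor known for driving respiratory chain genes, was in 19 of the 78 members (24.4%) and in 6.26% of all promoters. The ETS core, read by GABP among others, was in 22 members (28.2%) and in 9.22% of all promoters. E-boxes, which are short and frequent, were in 49 members (62.8%) and in 71.6% of all. The hypoxia response core ACGTG was in 20 members (25.6%) and in 19.7% of all, and an E-box of the form CACGTG counts under both motifs. The ERR site TCAAGGTCA was in 2 members (0.412% of all promoters), TATTTATA, another MEF2 core, in 1 (Atp5mg, 1.85% of all) and CTAAAAATA in 1 (Cox6a2, 0.517% of all). These matches describe letters in a window and are no evidence of binding.

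Cox8b, the muscle form of subunit 8 of cytochrome c oxidase, was the member whose level differed most between arrays, with an SD of 0.88 log2 over the 24 endothelial arrays against a median SD of 0.18 over the 86 members. It fell in isografts on days 3 and 4 and was lower in normal DA than in normal Lewis preparations. On the 3 normal Lewis arrays it read 7.59, 9.15 and 7.21 log2. Isografts read 5.96, 7.02 and 7.38 on day 2, 5.66, 6.23 and 5.95 on day 3, and 5.90, 6.25 and 6.26 on day 4. The day 3 and day 4 arrays all lay below the normal Lewis arrays, while day 2 overlapped them. The fitted changes were -1.20 (SE 0.39, adjusted p = 0.188), -2.03 (SE 0.39, adjusted p = 0.0056) and -1.84 log2 (SE 0.39, adjusted p = 0.0097) by limma on all 24 endothelial arrays, with p-values adjusted over all genes. The day 2 value was -0.61 log2 without replicate 2 of normal Lewis, the array with 9.15 log2, and -0.78 log2 without replicate 1 of isograft day 2. Without replicate 2 of normal Lewis, Cox8b on day 4 was -1.26 log2 with an adjusted p of 0.067. Without replicate 1 of isograft day 4 it was -1.72 log2 with an adjusted p of 0.055. On day 3 it stayed called without any single array, with changes between -2.42 and -1.45 log2.

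In allografts Cox8b read 5.34, 6.11 and 5.86 log2 on day 2, 5.94, 6.31 and 5.79 on day 3 and 5.17, 5.73 and 5.29 on day 4, against 5.85, 6.15 and 6.74 on the normal DA arrays. Every day 4 array lay below every normal DA array, and the other days overlapped them. The changes were -0.48, -0.24 and -0.85 log2 (SE 0.39, adjusted p = 0.582, 0.966 and 0.191 by limma), so that none passed. The day 2 value was -0.23 log2 without replicate 3 of normal DA and -0.27 log2 without replicate 1 of allograft day 2, and the day 3 value was 0.01 log2 without replicate 3 of normal DA. The change averaged over the 3 days differed between allografts and isografts by 1.17 log2 (95% interval 0.22 to 2.11, adjusted p close to 1), and by 0.58 log2 without replicate 2 of normal Lewis. The difference of normal DA from normal Lewis was -1.73 log2 (SE 0.39, adjusted p = 0.0329), and the arrays of the strains did not overlap. That strain difference lost its call without replicate 2 of normal Lewis (-1.15 log2, adjusted p = 0.242), without replicate 1 of normal DA (-1.54 log2, adjusted p = 0.171) and without replicate 2 of normal DA (-1.68 log2, adjusted p = 0.137), and also where only the normal groups entered the fit (adjusted p = 0.176).

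**Figure D1:**
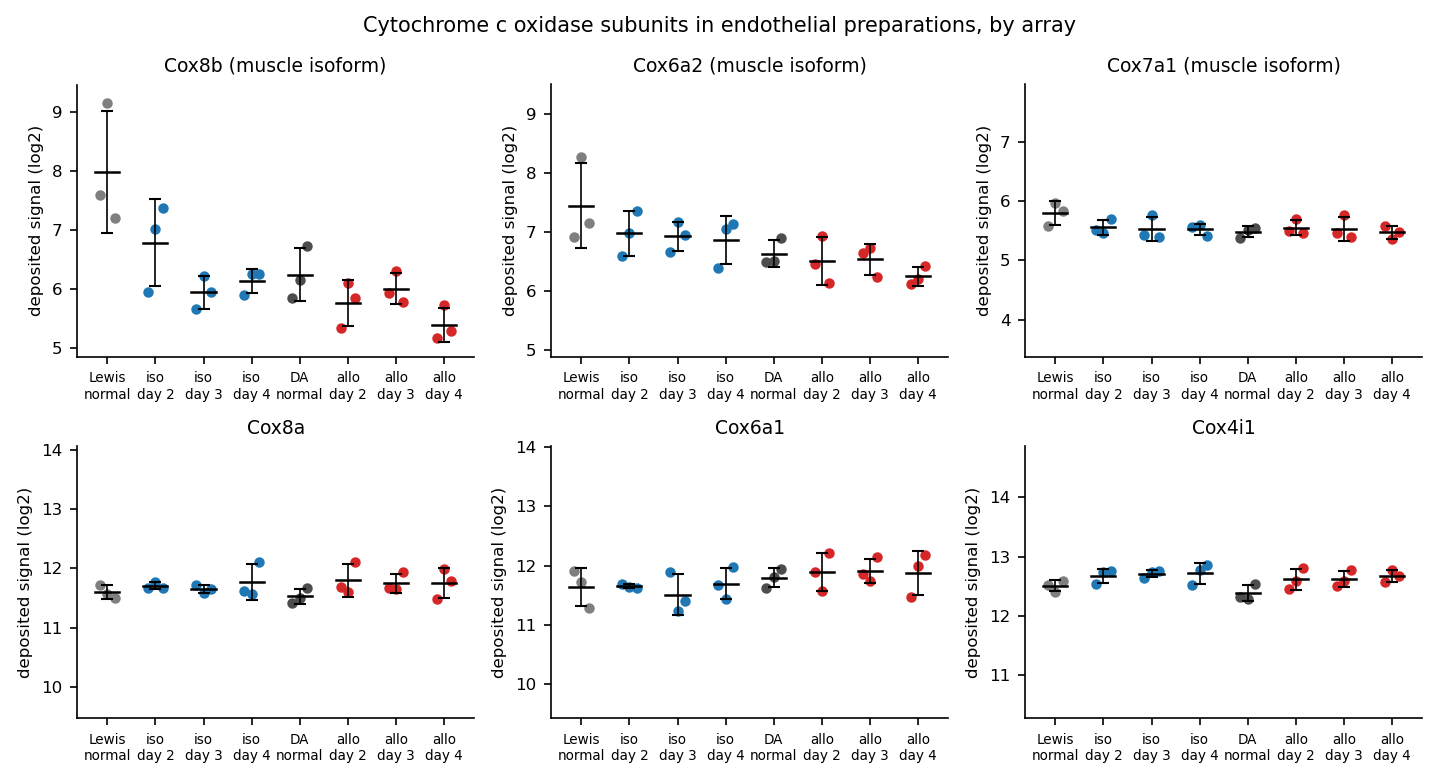
Deposited log2 signal (vertical axis, the same span in each panel) of 6 cytochrome c oxidase subunits by group (horizontal axis). Points are arrays (3 per group), horizontal lines are group means and bars the SD. Cox8b lies at 7.21 to 9.15 log2 on the normal Lewis arrays and at 5.66 to 6.26 in isografts of days 3 and 4, while Cox8a spans 11.42 to 12.11 over all arrays.

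Cox6a2, the muscle form of subunit 6a, did not pass in any graft comparison. It read 6.91, 8.26 and 7.16 log2 in normal Lewis, 6.60, 6.98 and 7.35 in isografts of day 2, 6.67, 7.16 and 6.95 on day 3, and 6.40, 7.06 and 7.13 on day 4. The highest of these 12 values was again on replicate 2 of normal Lewis, and every isograft group overlapped normal Lewis. Normal DA arrays read 6.49, 6.52 and 6.91 log2, and allografts read 6.45, 6.94 and 6.13 on day 2, 6.64, 6.74 and 6.23 on day 3 and 6.12, 6.21 and 6.43 on day 4. The day 4 allograft arrays all lay below the normal DA arrays, and the other days overlapped them. Changes were -0.47, -0.52 and -0.58 log2 in isografts and -0.13, -0.10 and -0.39 log2 in allografts (SE 0.29, adjusted p from 0.378 to 0.988 by limma). Normal DA differed from normal Lewis by -0.81 log2 (95% interval -1.41 to -0.20, adjusted p = 0.345).

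Cox7a1, the muscle form of subunit 7a, varied least of the 3. It was also dim, and was the muscle isoform left out by a filter at the 30th percentile of mean signal. The part of a signal floor in its small spread was not tested. Cox7a1 read 5.58, 5.98 and 5.84 log2 in normal Lewis, 5.52, 5.46 and 5.70 in isografts of day 2, 5.42, 5.76 and 5.39 on day 3 and 5.56, 5.60 and 5.41 on day 4. Normal DA read 5.38, 5.52 and 5.55 log2, and the 9 allograft arrays lay between 5.37 and 5.77. Grafts overlapped the normal hearts of their strain, while every normal DA array lay below every normal Lewis array. Changes of -0.24, -0.27 and -0.28 log2 in isografts and 0.07, 0.05 and -0.01 log2 in allografts (SE 0.13) did not pass (adjusted p from 0.351 to 0.985 by limma), nor did the strain difference of -0.32 log2 (adjusted p = 0.485). Every isograft interval excluded a change of 2-fold in this dim signal, with bounds between -0.55 and 0.03 log2.

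The common forms of the same subunits did not pass in any of these comparisons. Cox8a read 11.73, 11.57 and 11.50 log2 in normal Lewis, 11.72, 11.59 and 11.66 in isografts of day 3 and 11.61, 11.57 and 12.11 on day 4. Its changes were 0.11, 0.06 and 0.17 log2 in isografts and 0.27, 0.22 and 0.23 log2 in allografts (SE 0.16). Cox6a1, the common form of subunit 6a, changed by 0.01, -0.13 and 0.06 log2 in isografts and by 0.10, 0.12 and 0.08 log2 in allografts (SE 0.21), with single arrays between 11.23 and 12.21. Within arrays, the change of Cox8b minus that of Cox8a was -1.31 ± 0.73, -2.09 ± 0.35 and -2.01 ± 0.28 log2 in isografts and -0.75 ± 0.47, -0.46 ± 0.40 and -1.08 ± 0.12 log2 in allografts (SD, n = 3), each relative to the normal arrays of its strain, whose own SD was 1.04 (Lewis) and 0.33 (DA). Without replicate 2 of normal Lewis the values for isograft days 2, 3 and 4 were -0.71, -1.49 and -1.41 log2. For Cox6a2 relative to Cox6a1 the values were -0.48 ± 0.40, -0.39 ± 0.59 and -0.64 ± 0.45 in isografts and -0.23 ± 0.73, -0.22 ± 0.47 and -0.47 ± 0.24 in allografts, where the SD of the normal arrays was 0.77 (Lewis) and 0.12 (DA). Without replicate 2 of normal Lewis this pair was at -0.12, -0.03 and -0.28 log2 in isografts, and without replicate 1 of normal Lewis at -0.88, -0.79 and -1.04. It turned to 0.12 log2 without replicate 3 of allograft day 2 and to 0.04 log2 without replicate 3 of allograft day 3. These pairs are described with no test, and show unequal change only. Cox7a2, the common form of subunit 7a, was not analysed here.

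Part of the cardiomyocyte list fell where Cox8b was called, and also in comparisons where Cox8b was not called. Of 19 measured, 4, 9 and 6 fell in isografts on days 2, 3 and 4 and 0 rose, with medians of -0.44, -0.65 and -0.55 log2, and 3, 0 and 3 fell in allografts, with 0, 1 (Myh7) and 0 risers. Of all genes, 0.422%, 0.732% and 0.556% fell in isografts and 2.45%, 0.724% and 4.26% in allografts. Normal DA was lower than normal Lewis in 7 of the 19 (0.528% of all genes), with a median of -0.65 log2. Among the falls were those of Myh6, a myosin heavy chain, at -2.19, -2.40 and -2.14 log2 in isografts, and of the oxygen store Mb at -1.92, -2.12 and -2.06 log2. In allografts Myh6 changed by -1.84, -1.14 and -1.82 log2 and Mb by -1.23, -0.79 and -1.49 log2, and neither passed on day 3. Ckmt2, the mitochondrial creatine kinase of muscle, fell too, with changes of -0.95 and -0.99 log2 in isografts of days 3 and 4 (SE 0.23, adjusted p = 0.033 and 0.0205 by limma).

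Over the 24 endothelial arrays, the genes whose level ran most like that of Cox8b were Tnnc1 (Pearson r = 0.97), Myl2 (0.95), Fabp3 (0.94), Tnni3 (0.93) and Myl3 (0.92), which encode troponins, myosin light chains and a fatty acid carrier of muscle. For Cox6a2 they were Myoz2 (0.90), Myl3 (0.89), Myl2 (0.88), Tnnc1 (0.86) and Tmem70 (0.85). For Cox7a1 they were Trim9 (0.84), Rasgrf1 (0.83), Rxrg (0.83), Coro2a (0.83) and Fancd2os (0.81), of which none is on the cardiomyocyte list. With the group means removed, the 5 values for Cox8b lay between 0.83 and 0.92. Over all 19 genes of the cardiomyocyte list, r with Cox8b ran from -0.12 to 0.97, and 11 were above 0.7. The arrays share groups and preparations, so these are descriptions with no test. With the mean of the cardiomyocyte list as a covariate, Cox8b was -0.41 log2 on day 3 of isografts (adjusted p = 0.667), -0.29 log2 on day 4 (adjusted p = 0.873) and -0.05 log2 between strains. Since the list did not overlap between normal Lewis and either of those groups, that covariate and the group cannot be told apart. The part of heart muscle RNA in the falls of Cox8b was not tested beyond these values.

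**Figure D2:**
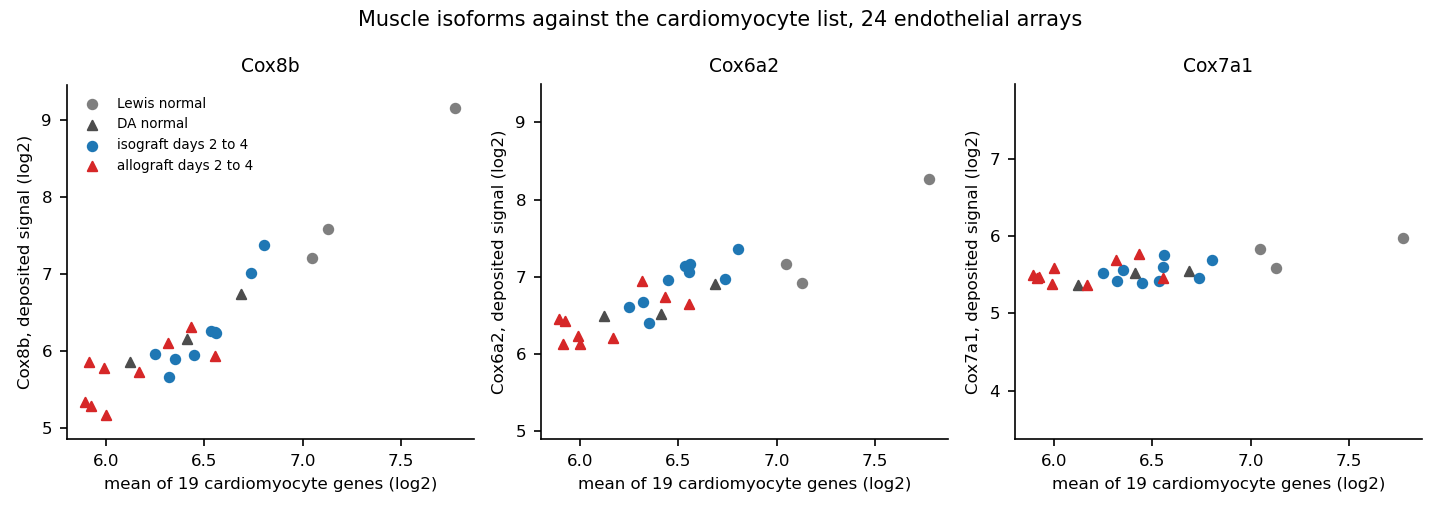
Deposited log2 signal of Cox8b, Cox6a2 and Cox7a1 (vertical axes, the same span in each panel) against the mean log2 signal of 19 cardiomyocyte genes (horizontal axis) on the 24 endothelial arrays, coloured by group. Cox8b runs from 5.17 to 9.15 log2 as the list runs from 5.89 to 7.78, while Cox7a1 stays between 5.37 and 5.98.

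The other 83 members changed little. In isografts of day 2 the members called numbered 0 of 86 (1.06% of all genes rose and 0.422% fell), with 6 (6.98%) at an unadjusted p under 0.05 by limma, against 10% of all genes. On day 3 the call was Cox8b alone, 1 fall and 0 rises (background 1.8% risen, 0.732% fallen), and on day 4 again Cox8b alone (2.61% and 0.556%). At that unadjusted p there were 8 members (9.3%) against 12.2% of all genes on day 3. On day 4 there were 13 (15.1%) against 14%, the 1 graft comparison with a share above the background. In allografts 0 of 86 were called on day 2 (3.53% of all genes rose and 2.45% fell) and 0 on day 3 (1.55% and 0.724%). At an unadjusted p under 0.05 there were 15 members (17.4%) on day 2, close to the 18.9% of all genes. On day 3 there were 5 members (5.81%) against 10.8%. On day 4, 2 rose and 0 fell (7.19% and 4.26% of all genes), so that the share of members called, 2 of 86, was below the background. The unadjusted share there was 15 members (17.4%) against 23.5% of all genes. Between normal DA and normal Lewis the 1 member called was Cox8b, lower in DA (0.485% of all genes higher, 0.528% lower).

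The sizes of change bound this. Of the 83, the 95% interval of the change lay within 2-fold for 82, 82 and 81 in isografts on days 2, 3 and 4, for 83, 82 and 80 in allografts and for 82 between the strains. The exceptions were Cox4i2 in 6 of those 7 comparisons (all but allograft day 2), Ndufc1 on day 4 of isografts and Cox5a and Cox6b2 on day 4 of allografts. Median changes of the 83 were 0.11, 0.07 and 0.14 log2 in isografts and 0.19, 0.11 and 0.19 log2 in allografts, beside medians over all genes of -0.01, 0.00 and -0.01 and of 0.03, 0.00 and 0.00. Single arrays moved these medians. Without replicate 3 of its own group the median was 0.05 log2 on isograft day 4, 0.09 on allograft day 2, 0.06 on allograft day 3 and 0.12 on allograft day 4, and on allograft day 4 it was 0.12 log2 without replicate 2 and 0.29 log2 without replicate 1. Values above 0 were found for 67, 58 and 77 of the 83 in isografts and for 72, 73 and 75 in allografts, although few passed singly.

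The lean was also read relative to the median of all genes, since scaling an array moves all of its genes alike. Centring each array on its median moved the median of all genes on day 4 of isografts from -0.01 to -0.11 log2 and that of the 83 from 0.14 to 0.03, so that the difference of 0.15 log2 between them was the same by construction. The counts above 0 after centring, 58, 49 and 52 of the 83 in isografts and 70, 68 and 64 in allografts, carry that shift. With arrays quantile-normalized over genes, the median of the 83 lay above that of all genes by 0.11, 0.08 and 0.12 log2 in isografts and by 0.21, 0.12 and 0.17 log2 in allografts, and the counts above 0 were 61, 55 and 62 and then 71, 68 and 67. With the pan-leukocyte mean as a covariate the median of the 83 turned below 0 on isograft days 3 (-0.09 log2) and 4 (-0.02) and on all 3 allograft days (-0.10, -0.14 and -0.17), and it was 0.02 on isograft day 2. Normal hearts and grafts did not overlap in that mean, so that covariate and grafting cannot be told apart. With the cardiomyocyte mean as a covariate, the 83 lay above all genes by 0.06, 0.03 and 0.12 log2 in isografts and 0.16, 0.11 and 0.15 in allografts. That mean did not overlap between normal Lewis and isografts. With dim genes left out by the filter, the values were 0.10, 0.06 and 0.09 log2 in isografts and 0.20, 0.13 and 0.18 in allografts. The mean of the 83 members per array was 10.15 to 10.34 log2 in normal hearts and 10.25 to 10.64 in grafts, and it was highest on replicate 3 of allograft day 2, the array with the highest upper quartile over all genes (9.36 log2).

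**Figure D3:**
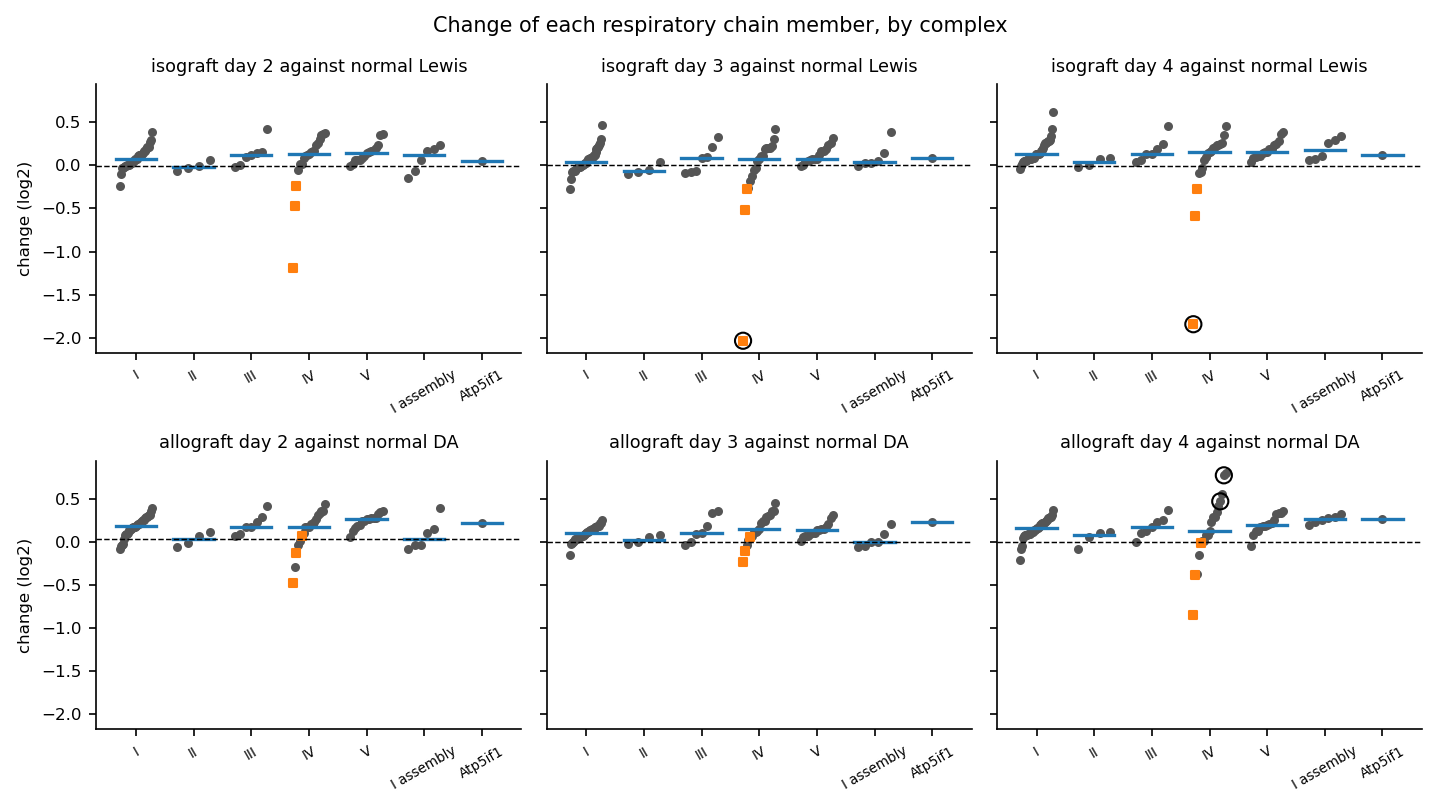
Log2 change (vertical axis) of each of the 86 members against the normal hearts of its strain, by complex (horizontal axis), in 6 graft comparisons. Points are genes, orange squares the muscle isoforms, blue lines the median of a complex, the dashed line the median of all genes, and circles mark calls. Circles ring Cox8b at -2.03 and -1.84 log2 in isografts and Cox7c and Cox6b2 at 0.47 and 0.77 log2 in allografts of day 4.

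Complex I, which takes electrons from NADH, had median changes of 0.07, 0.04 and 0.13 log2 in isografts and 0.18, 0.11 and 0.16 log2 in allografts over 34 members, with 0 called. Its highest members were Ndufc1 on all 3 isograft days (0.38, 0.47 and 0.62 log2) and Ndufb1, Ndufb5 and Ndufa13 on allograft days 2, 3 and 4 (0.40, 0.25 and 0.37 log2). Its lowest were Ndufb8 in isografts (-0.24, -0.28 and -0.04 log2) and Ndufs7, Ndufs1 and Ndufb10 in allografts (-0.08, -0.15 and -0.21 log2). Ndufc1, an accessory subunit, read 8.88, 8.88 and 8.82 log2 in normal Lewis and 9.17, 9.44 and 9.82 in isografts of day 4. These arrays did not overlap, yet the change did not pass (SE 0.19, adjusted p = 0.0902 by limma).

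Complex II, which oxidises succinate and also belongs to the tricarboxylic acid cycle, had medians of -0.02, -0.06 and 0.04 log2 in isografts and 0.03, 0.02 and 0.08 log2 in allografts over its 4 members, with 0 called. Sdha, its flavoprotein, read 10.62, 10.56 and 10.56 log2 in normal Lewis, 10.53, 10.64 and 10.61 in isografts of day 4, 10.52, 10.57 and 10.63 in normal DA and 10.58, 10.48 and 10.40 in allografts of day 4. Its changes ran from -0.08 to 0.05 log2 over the 6 graft comparisons (SE 0.10). Sdhb, the iron-sulphur subunit, ran from -0.10 to 0.11 log2 (SE 0.14), with arrays between 10.89 and 11.45. The membrane anchors Sdhc and Sdhd ran from -0.03 to 0.10 (SE 0.09) and from -0.08 to 0.11 log2 (SE 0.11), with arrays between 10.73 and 11.06 and between 10.80 and 11.20. All 24 intervals of these 4 genes in grafts lay within 2-fold, and groups overlapped.

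Complex III, which carries electrons to cytochrome c, had medians of 0.12, 0.09 and 0.13 log2 in isografts and 0.17, 0.10 and 0.17 log2 in allografts over 7 members, with 0 called. Its hinge subunit Uqcrh was the highest in each graft comparison, at 0.42, 0.33 and 0.46 log2 in isografts and 0.42, 0.36 and 0.36 log2 in allografts (SE 0.14). It read 11.11, 11.25 and 11.12 log2 in normal Lewis and 11.40, 11.65 and 11.79 in isografts of day 4, without overlap (adjusted p = 0.089 by limma). Its lowest members were Uqcrfs1 on isograft days 2 and 3, Uqcrc1 on isograft day 4 and allograft day 2, Uqcrq on allograft day 3 and Uqcr11 on allograft day 4, at -0.09 to 0.06 log2.

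ATP synthase had medians of 0.14, 0.08 and 0.15 log2 in isografts and 0.26, 0.14 and 0.20 log2 in allografts over 15 members, with 0 called. Its highest member in isografts was Atp5f1e, the small epsilon subunit of the rotor, at 0.37, 0.31 and 0.38 log2. In allografts the highest were Atp5po (0.36 log2), Atp5mg (0.31) and Atp5mpl (0.36) on days 2, 3 and 4. The lowest lay between -0.05 log2 (Atp5pf on allograft day 4) and 0.06 (Atp5pf on allograft day 2). The inhibitor Atp5if1, which blocks the enzyme when it would run backwards, changed by 0.05, 0.08 and 0.12 log2 in isografts and 0.22, 0.23 and 0.27 log2 in allografts and did not pass.

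Complex IV held both genes that rose in allografts of day 4. Cox7c, a subunit made in most tissues, read 11.27, 11.07 and 11.29 log2 in normal DA and 11.35, 11.86 and 11.83 in allografts of day 4, without overlap, and rose by 0.47 log2 (SE 0.14, adjusted p = 0.0366 by limma). Cox6b2, known as the testis form of subunit 6b, read 4.20, 4.13 and 4.11 log2 in normal DA and 4.73, 5.61 and 4.40 in allografts of day 4, also without overlap, and rose by 0.77 log2 (SE 0.21, adjusted p = 0.0187). The deposited table gives no detection call, and Cox6b2 was among the 4 members left out by a filter at the 30th percentile of mean signal. Both calls rested on single arrays. Without replicate 2 of allograft day 4, Cox6b2 was 0.42 log2 (adjusted p = 0.119) and Cox7c 0.38 log2 (adjusted p = 0.167), and neither passed without replicate 2 of normal DA either (adjusted p = 0.0615 and 0.159). Cox6b2 also lost its call without replicate 3 of normal DA, and Cox7c without replicate 1 or 3 of normal DA or replicate 3 of allograft day 4.

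Leaving out replicate 1 of allograft day 4 gave the reverse, with 16 of 86 members risen and 0 fallen, beside 11.8% risen and 6.56% fallen of all genes. These were Cox5a, Cox6b2, Cox7b, Cox7c, Cox5b and Cox6c of complex IV, Ndufa3, Ndufa13 and Ndufb1 of complex I, the assembly factors Ndufaf8, Ndufaf7 and Ndufaf5, and Atp5mpl, Atp5pb, Atp5po and Atp5mg of ATP synthase, with changes from 0.39 (Ndufaf5) to 1.02 log2 (Cox5a). On that replicate the mean of the 83 members was 10.25 log2, against 10.57 and 10.51 on replicates 2 and 3. The pan-leukocyte mean was 8.85 log2 there, against 9.33 and 9.32. Other cell type lists also differed over these 3 arrays, with a mean of 8.02 to 11.46 log2 for 10 fibroblast genes and 6.52 to 7.57 for 12 T cell genes. The part of any of these differences in the count was not tested. With all arrays, Cox5a, a matrix-side subunit, read 6.82, 6.34 and 7.15 log2 in normal DA and 7.11, 7.45 and 8.15 in allografts of day 4, with overlap (0.80 log2, SE 0.26, adjusted p = 0.0572). It was called, with Cox7c, where dim genes were left out by the filter, and alone without replicate 3 of normal DA.

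Cox4i2 and Ndufa4l2, isoforms tied to oxygen supply, showed wide spread and no call. Cox4i1, the common form of subunit 4, spread less and was not called either. It read 12.52, 12.40 and 12.59 log2 in normal Lewis and 12.32, 12.28 and 12.54 in normal DA. Its changes were 0.17, 0.21 and 0.21 log2 in isografts and 0.24, 0.24 and 0.29 log2 in allografts (SE 0.12, adjusted p from 0.138 to 0.747 by limma). Cox4i2, the form known to be induced by low oxygen, ranged from 5.73 log2 (replicate 2 of allograft day 2) to 7.90 (replicate 1 of normal Lewis). Its normal arrays read 7.90, 6.51 and 6.61 (Lewis) and 6.48, 6.79 and 6.42 (DA), and those of day 4 read 7.64, 6.48 and 7.63 in isografts and 7.27, 7.42 and 6.03 in allografts. Replicates of a group spread from 5.73 to 7.54 log2 (allograft day 2), while the changes between grafts and normal hearts ran from -0.26 to 0.34 log2 (SE 0.43).

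Ndufa4l2, a relative of the complex IV subunit Ndufa4 and a target of hypoxia-inducible factors, read 8.87, 8.09 and 8.20 log2 in normal Lewis and 8.21, 8.37 and 8.31 in normal DA. On day 4 it read 8.67, 7.77 and 8.45 in isografts and 8.33, 8.34 and 7.10 in allografts. It changed by 0.16, -0.18 and -0.09 log2 in isografts and by -0.29, -0.03 and -0.37 log2 in allografts (SE 0.28), with groups overlapping. The mean of 12 genes of mural cells, which surround vessels, also varied within groups. It ran from 7.65 to 8.34 log2 on allograft day 2 and from 8.09 to 8.67 on allograft day 4. The part of mural cells in the spread of Cox4i2 and Ndufa4l2 was not tested. Hypoxia targets outside the chain gave 1, 1 and 1 of 14 risen in isografts and 1, 2 and 4 in allografts, with 0 fallen. Of all genes, 1.06%, 1.8% and 2.61% rose in isografts and 3.53%, 1.55% and 7.19% in allografts. Pgk1, an enzyme of glycolysis, rose in all 6 comparisons, by 0.75, 0.94 and 0.84 log2 in isografts and 1.06, 0.75 and 1.35 log2 in allografts (SE 0.18). Pfkfb3, Slc2a1 and Hk2, which feed glycolysis, rose by 2.00, 1.22 and 1.12 log2 in allografts of day 4.

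Other mitochondrial genes were also mostly uncalled, and their counts are to be read beside the shares of all genes given above. On allograft day 4 that share was 7.19% risen and 4.26% fallen. Of 73 genes of the mitochondrial ribosome, 0, 0 and 1 rose in isografts and 1, 0 and 5 in allografts, with 0 fallen and medians of 0.09, 0.11 and 0.21 and of 0.17, 0.09 and 0.27 log2. Mrps6 rose by 1.11 log2 on isograft day 4 and by 1.22 and 1.32 log2 on allograft days 2 and 4 (SE 0.30). Mrps34 (0.77 log2), Mrpl54 (0.73), Mrpl33 (0.60) and Mrpl1 (0.45) rose on allograft day 4. Of 17 carriers and channels, 1, 0 and 1 rose and 0, 1 and 1 fell in isografts, and 2, 0 and 4 rose and 0 fell in allografts. Ucp2, an uncoupling protein also made by leukocytes, rose by 1.76 log2 on isograft day 2 and by 1.63 and 1.38 log2 on allograft days 2 and 4 (SE 0.44), and Vdac1, a pore of the outer membrane, by 0.59 log2 on isograft day 4 and by 0.53 and 0.52 log2 on allograft days 2 and 4 (SE 0.14). The phosphate carrier Slc25a3 (0.41 log2) and the import receptor Tomm22 (0.40) rose on allograft day 4.

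Of 30 assembly factors of complexes II to V, the 1 call in grafts was Cox14, at 0.49 log2 on allograft day 4 (SE 0.15, adjusted p = 0.0386 by limma), while Pet100 (1.12 log2) and Sco1 (0.66 log2) were higher in normal DA than in normal Lewis. Of 14 regulators of mitochondrial biogenesis, 0 were called in isografts and 1 in allografts, where Ppargc1b, a coactivator that drives respiratory genes, fell by 0.58 log2 on day 4 (SE 0.17, adjusted p = 0.032). Their medians lay between -0.13 and -0.01 log2 over the 6 graft comparisons. Of 15 genes of the tricarboxylic acid cycle and pyruvate dehydrogenase, 1 was called, Idh2, a fall of 0.81 log2 on allograft day 4 (SE 0.20, adjusted p = 0.0117). The 15 genes of fatty acid oxidation and the 14 electron carriers, with cytochrome c and cytochrome c1, gave 0 calls in any of the 6.

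The response to grafting was not shown to differ between the graft types. Allograft minus isograft changes gave 0 of 86 members on day 2 (0.0% of all genes), 0 on day 3 (0.0%), 0 on day 4 (0.00703%, 1 gene) and 0 over the average of the days (0.00703%, 1 gene), with 0, 2, 0 and 1 members at an unadjusted p under 0.05 by limma, beside 3.38%, 2.35%, 5.51% and 4.07% of all genes. Median differences of the 83 members were 0.07, 0.04 and 0.03 log2 on days 2, 3 and 4, and for 82 of the 83 the 95% interval of the averaged difference lay within 2-fold. These medians had no stable sign: they ranged from -0.03 to 0.16 log2 on day 2, from -0.02 to 0.09 on day 3 and from -0.05 to 0.13 on day 4 as single arrays were left out. The sign turned without replicate 3 of the allograft group on days 2, 3 and 4, without replicate 2 of normal DA on days 3 and 4, and without replicate 2 of allograft day 4 or replicate 1 of isograft day 4 on day 4. With the pan-leukocyte mean as a covariate the medians turned to -0.07, -0.06 and -0.13 log2. Between days 2 and 4 the count was 0 of 86 in isografts (0.0352% of all genes) and 0 in allografts (0.38%), with 0 and 2 members at an unadjusted p under 0.05, beside 2.41% and 8.42% of all genes. The medians of the 83 were 0.05 and -0.03 log2, and they turned to -0.04 log2 without replicate 3 of isograft day 4, to 0.09 log2 without replicate 3 of allograft day 2 and to 0.08 log2 without replicate 1 of allograft day 4.

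Leukocytes of allografts were set against the 9 allograft endothelial arrays by level, with no test, since the 4 leukocyte arrays appear, from their medians and number of decimals, to have been normalized apart, and carry the label of the other strain, so that cell type, strain and normalization cannot be told apart. The median difference of 0.33 log2 over all genes was removed. Counting genes that differed by 2-fold or more without overlap of arrays, 2 of 86 members were higher in leukocytes (8.61% of all genes) and 0 lower (8.64%), both counts below the background. The 2 were assembly factors of complex I. Ndufaf1 read 6.60, 6.54, 6.14 and 6.44 log2 in leukocytes after that shift (days 2, 3, 3 and 4) and 4.76 to 5.63 in endothelium, with a difference of 1.25 log2. Ndufaf7, a methyltransferase of the assembly, read 8.60, 8.51, 8.66 and 8.68 against 7.12 to 7.72, with a difference of 1.28 log2. These are readings of the brighter probe set of Ndufaf7. The dimmer one did not move alike in allograft endothelium (see other observations), and its level in leukocytes is not given here.

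**Figure D4:**
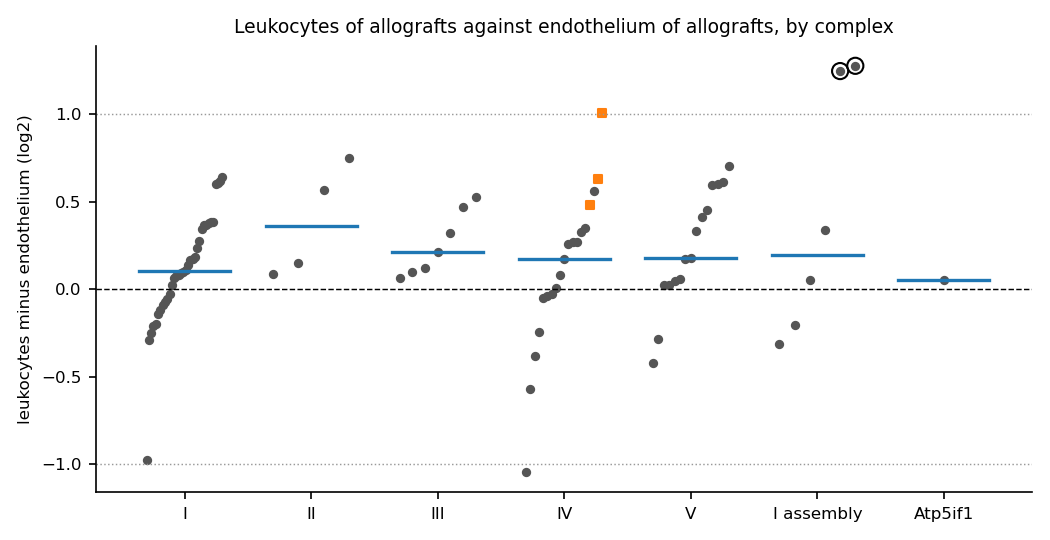
Log2 difference between 4 leukocyte and 9 endothelial arrays of allografts (vertical axis) for each member, by complex (horizontal axis), after removal of the median difference of all genes. Points are genes, orange squares the muscle isoforms, blue lines medians, dotted lines 2-fold, and circles mark Ndufaf7 (1.28 log2) and Ndufaf1 (1.25 log2), the 2 members beyond 2-fold without overlap.

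The median difference was 0.16 log2 over the 86 members, 0.10 for complex I, 0.36 for complex II, 0.21 for complex III, 0.17 for complex IV and 0.18 for ATP synthase. In complex II, Sdhb (0.75 log2) and Sdhd (0.57) were further apart than Sdha (0.09) and Sdhc (0.15). The lowest members were Cox4i2 (-1.05 log2, 5.38 to 6.05 in leukocytes and 5.73 to 7.54 in endothelium) and Ndufa7 (-0.97 log2, 10.24 to 10.59 against 11.03 to 11.88, without overlap). The muscle isoforms differed by 1.01 (Cox8b), 0.63 (Cox7a1) and 0.48 log2 (Cox6a2). Both day 3 leukocyte arrays carried more Cox8b (6.88 and 7.42 log2 after the shift) than those of days 2 and 4 (6.36 and 6.27). They also had higher cardiomyocyte means (7.25 and 7.75 against 6.38 and 6.24 as deposited) and endothelial means (9.70 and 10.41 against 8.43 and 8.71). The part of other cells in the Cox8b level of those arrays was not tested.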

How the data were processed

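Per the submitters' processing notes the authors used RMA and affy, whose versions are not given there, and what they deposited is a log2 signal for each probe set. The medians and decimals of the 24 endothelial arrays differ from those of the 4 leukocyte arrays, which appear to have been normalized apart. Of 31099 probe sets, 20826 matched a single gene in the platform annotation, which gave 14217 genes. limma 3.58.1 (R 4.3.3, lmFit and eBayes, 16 residual degrees of freedom, prior worth 4.06) was fitted to the deposited values of the 24 endothelial arrays in 8 groups. Benjamini-Hochberg adjustment ran over all genes in each of 13 comparisons, with calls at an adjusted p under 0.05. The fit was checked on simulated data with independent noise and added changes of 2-fold or more. That check does not bear on the smaller changes of most members. The number of arrays limits the precision (median SE 0.165 log2), and p-values measure only the spread between these samples, which the series calls biological replicates.

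Members and lists were chosen with earlier results of these data known. Named are the muscle isoforms, their paralogs, Cox4i1, Cox4i2, Ndufa4l2 and complex II by array. Also named are the highest and lowest member per complex, every called member, up to 4 members of each of 8 pathway lists, and the 5 genes most correlated with each muscle isoform. Members described beyond these (Ndufc1, Uqcrh, Cox5a and those under other settings) were picked after their values were seen. Cell type lists numbered 9, of which the skeletal muscle, fat, fibroblast, mural, macrophage and T cell lists had medians of -0.10 to 0.13, -0.19 to 0.10, 0.22 to 2.13, 0.17 to 0.58, 1.57 to 3.08 and 0.19 to 1.42 log2 over the 6 graft comparisons. Promoters came from RefSeq (GRCr8), motifs from pandas 2.3.3 in Python 3.11.15.

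Replicate numbers were checked for pairing. Deviations of same-numbered arrays correlated above 0.1 in all 3 pairs for isograft day 2 alone (0.292, 0.350 and 0.412). The labels do not say whether a shared number pairs arrays. Alternatives were other probe set rules, filters, priors, centring, covariates, blocks and leaving out each array.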

Additional observations from a re-analysis of the deposited data

How the results depend on the processing

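Of 6483 values recomputed under an alternative, 6383 were labelled as the same, 41 as weaker, 30 as stronger, 28 as moved and 1 as reversed. For a change that did not pass, the label of sameness does not show that the sign was kept. Members called on isograft days 3 and 4 (1 each, Cox8b) became 0 with either covariate. Cox8b was -0.41 and -0.29 log2 with the cardiomyocyte mean, and -2.24 and -2.08 log2 with the pan-leukocyte mean (adjusted p = 0.155 and 0.362 by limma). Neither mean overlapped between normal Lewis and those isografts, so that covariate and group cannot be told apart. The strain difference went from 1 to 0 likewise, at -0.05 log2 with the cardiomyocyte mean, -1.69 log2 with the pan-leukocyte mean (adjusted p = 0.0524) and -1.73 log2 with only the groups compared in the fit (adjusted p = 0.176). Leaving out 1 array gave 0 to 1 on isograft day 4 (Atp5f1e in place of Cox8b without replicate 1 of that group) and 0 to 1 between strains. For allograft day 2 (0 called), the fit with a replicate block gave 2 (Cox7c and Ndufb1), quantile normalization over the 24 arrays, chosen after seeing the data, gave 4 (Atp5po, Ndufb1, Ndufb5 and Uqcrh), and leaving out 1 array gave 0 to 2. For allograft day 4 (2 called), centring, quantile normalization and the cardiomyocyte covariate each gave 1 (Cox6b2), the replicate block 4 (Cox5a, Cox6b2, Cox7b and Cox7c), the pan-leukocyte covariate 0, only the groups compared 0, and leaving out 1 array 0 to 16. With the pan-leukocyte covariate Cox7c turned to -0.20 log2 (adjusted p = 0.999). The replicate block changed no other count of members called. On isograft day 2, where same-numbered arrays correlated above 0.1 in all 3 pairs, 0 were called with and without it. In leukocytes, members higher went from 2 to 5 with the median difference left in (with Atp5f1a, Cox8b and Sdhb) and to 4 on day 3 alone (with Cox8b and Cox6a2), and were 2 to 3 without 1 array. Members lower went from 0 to 1 with all 28 arrays quantile-normalized together (Ndufa7), to 2 on day 2 alone and 2 on day 4 alone (Cox4i2 and Ndufa7), and were 0 to 1 without 1 array. Cox8b relative to Cox8a ranged without 1 array from -1.22 to -0.90 on allograft day 4, from -2.42 to -1.49 on isograft day 3 and from -2.34 to -1.41 log2 on isograft day 4. The causes of these shifts were not tested. Array signals have no counting depth, and the deposited table gives no background to set dim probes such as those of Cox6b2 and Cox7a1 against.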

Other observations

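Probe sets of 1 gene did not always move alike. For the assembly factor Ndufaf7, the probe set used here, with the higher mean (7.19 log2 over the 24 endothelial arrays), differed by 0.15, 0.00 and 0.28 log2 in allografts on days 2, 3 and 4, and the other (6.69 log2) by -0.34, -0.41 and -0.34 log2. For Ndufa9, an accessory subunit of complex I, the used probe set (10.10 log2) differed by 0.21, 0.19 and 0.16 log2 and the other (4.24 log2) by -0.45, -0.39 and -0.46 log2. Both probe sets of Uqcrc2, a core subunit of complex III, differed in 1 direction in all 6 graft comparisons, from 0.14 to 0.29 log2 (used) and from 0.13 to 0.29 log2 (other). Cox6c and the pseudogene Cox6c-ps1 may share signal, since near-identical copies can bind the same probes.

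Cox7a1 ran less closely with the cardiomyocyte genes than the other muscle isoforms did. Its median correlation with the 19 cardiomyocyte genes over the 24 endothelial arrays was 0.58, beside 0.71 for Cox8b and 0.68 for Cox6a2, and 0.39, 0.58 and 0.60 with group means removed. Over the same arrays its correlation was 0.67 with Cox8b and 0.69 with Cox6a2, while that of Cox8b with Cox6a2 was 0.86. These arrays share groups and preparations, and no test was made. The signal of Cox7a1 was also dim and narrow in range, and the part of that in its lower correlations was not tested.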
